A study of Homo sapiens with 9 samples.

Results

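The genes described here encode the machinery of DNA replication and its G1/S control. They were taken from a fixed list of 41 symbols. The rule uses no measured value, though the list was chosen with earlier results of these data known. Of the 41, 40 matched a gene in the deposited transcript tables and passed the filter on low counts. UHRF1, a ubiquitin ligase that reads hemimethylated DNA, was the exception: its identifier had no transcript among those listed, and no value is given for it. The 40 genes stood among 16181 genes tested and 56347 genes matched. RNA came from HEK293 cells in the labels (293 T in the study's methods), a human embryonic kidney line, after transfection with a control siRNA or with siRNAs against both KIAA1429 (VIRMA, also called Virilizer) and WTAP, subunits of the complex that writes N6-methyladenosine on mRNA. RNA of nuclear and of cytoplasmic fractions was sequenced as mRNA libraries. The 9 libraries were 3 control nuclei, 3 RNAi nuclei, 1 control cytoplasm (replicate 2) and 2 RNAi cytoplasms (replicates 1 and 2). The cells are of 1 line, the depletion is partial and covers both proteins at once, and no library comes from depletion of either protein alone.

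Replication is prepared in G1, when the origin recognition complex, CDC6 and CDT1 load the MCM2 to MCM7 helicase onto DNA. In S phase CDC45, the GINS complex and MCM10 turn that helicase into an unwinding machine, the RFC complex loads the PCNA clamp, and DNA polymerases alpha, delta and epsilon copy the strands, with FEN1 and LIG1 finishing the lagging strand. Transcription of many of these genes rises at G1/S under the E2F factors, which cyclin E with CDK2 releases from the retinoblastoma protein, and proliferating cells express the set.

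Because this family is known for E2F regulation, the promoters were searched for 4 forms of the E2F consensus, TTTCCCGC, TTTGGCGC, TTTCGCGC and TTTGCCGC, on both strands and with overlapping hits allowed. The windows were those of RefSeq on GRCh38.p14, from 250 bases before to 50 after the start of each gene. Of the 36 listed genes with a promoter window, 20 (55.6%) held at least 1 such stretch, against 908 of all 27305 promoters (3.3%). Among 52 further replication and G1/S genes, 10 of the 44 with a window did (22.7%), and among 28 mitosis genes 2 of 23 (8.7%). The stretches of 9 members are shown because most of these genes stand at the ends of the cytoplasmic changes described further on. MCM2 and E2F1 each held a second match, GCGCGAAA and GCGGCAAA, that reaches into the lower-case letters shown. The stretches read as follows along the strand of the gene, with 1 match per gene in capitals.
CDT1 (chr16:88803746-88803769, plus strand): gggcgcccGCGGGAAAtttggcgg
LIG1 (chr19:48170443-48170466, minus strand): tcacccctTTTCCCGCcctcctcc
GINS3 (chr16:58392458-58392481, plus strand): ccccgggcGCGGGAAAcgagtttc
E2F1 (chr20:33686390-33686413, minus strand): aaaaaggaTTTGGCGCgtaaaagt
CLSPN (chr1:35769968-35769991, minus strand): ctggctggGCGGGAAAgcaagaac
POLE2 (chr14:49688204-49688227, minus strand): cggcggtgGCGCCAAAtcgcaaat
POLA1 (chrX:24693773-24693796, plus strand): atcacaggGCGCCAAAcgcgcgtc
CDC6 (chr17:40287878-40287901, plus strand): cattcggaTTTGGCGCgagcgcgg
MCM2 (chr3:127598405-127598428, plus strand): gaaccactTTTCGCGCgaaacctg
The coordinates of these stretches are those of GRCh38.p14. Gene coordinates given elsewhere are those of GRCh37 (hg19), the build of the deposited files, and no position was converted between the builds.

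Totals of estimated counts ran from 11627403 to 19036141 per library (median 14995904). In CPM (counts scaled to the library total) of the counts matched to genes, 3 counts in a library corresponded to 0.19 to 0.303. Levels below are CPM scaled by trimmed mean of M values (TMM), on which 3 counts corresponded to 0.183 to 0.328. These CPM are not corrected for gene length, so the level of a gene was compared between libraries. WTAP stood at 23.0 to 27.6 CPM in control nuclei and 12.2 to 15.6 in RNAi nuclei (56.2% of control), and VIRMA fell to 47.2% of control in the nucleus. In the cytoplasm WTAP was at 37.5 CPM in the control and 10.8 and 11.9 after RNAi (30.3%), and VIRMA at 23.8% of control. The kidney line markers IRS4, PAX2, LIN28B and NEFM were present in all 9 libraries, with IRS4 between 495 and 1120 CPM of matched counts. The leukocyte markers PTPRC and CD3E and the hepatocyte marker ALB reached at most 0.23 CPM, while of the fibroblast markers COL1A1 was at 58.8 to 83.2 CPM and PDGFRB at 0.44 to 1.52. PECAM1, the endothelial marker, was not matched. In bulk RNA, fewer cells in a phase of the cycle and less RNA per cell cannot be told apart. The labels do not say that replicates were separate cultures, so p-values measure only the spread between these libraries, which may be technical.

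Between replicate nuclei the median coefficient of variation was 6.8% in controls and 5.6% after RNAi, beside 14.9% and 10.3% over all tested genes. PRIM2, the large primase subunit, rested on 4 to 36 counts per library and reached 10 counts in 6 libraries, and CCNE2 rested on 20 to 113 counts.

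**Figure D1:**
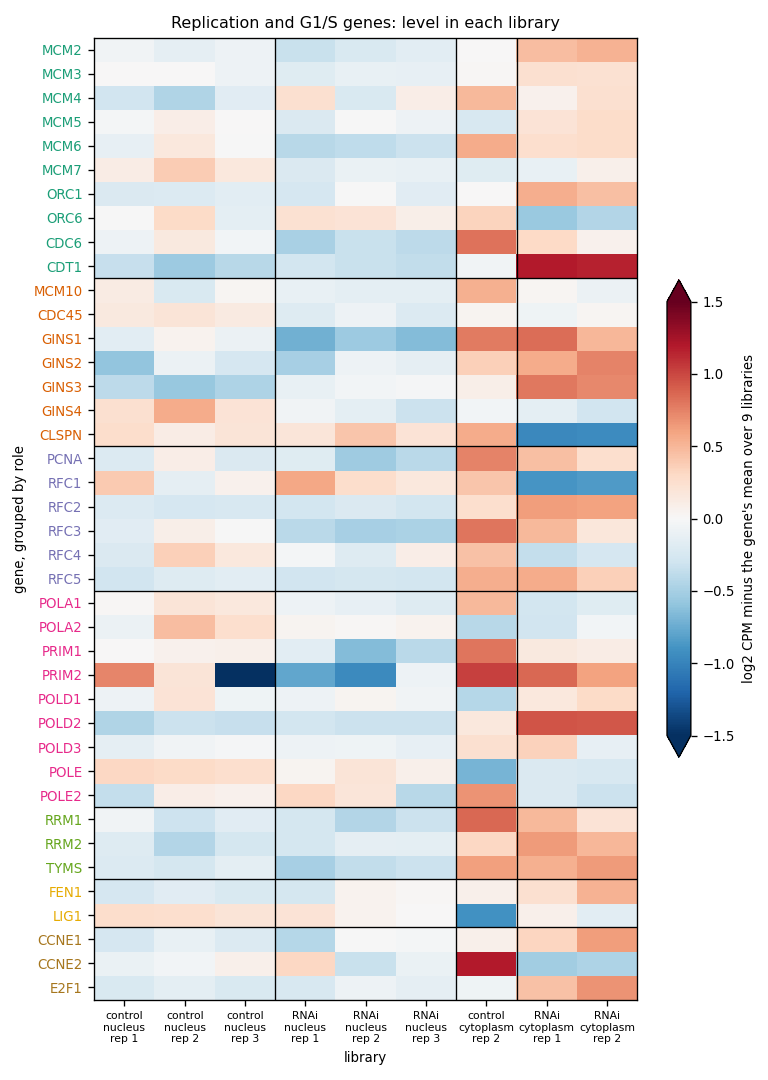
Level of the 40 measured members in the 9 libraries, as log2 CPM minus the mean of that gene over the libraries, with genes (rows) grouped and coloured by role and libraries (columns) grouped by fraction and siRNA. CDT1 and POLD2 are high and CLSPN, RFC1 and CCNE2 low in both RNAi cytoplasms relative to the control cytoplasm, while the 6 nuclear columns differ less.

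In control cells the replication mRNAs lay mostly toward the cytoplasm. Of the 40 genes, 17 were lower in the nucleus than in the cytoplasm (background 22.7% of all tested genes) and 3 were higher (background 28.0%) at a false discovery rate (FDR) below 0.1 and a log2 difference over 0.5, by edgeR's quasi-likelihood test. The median log2 nuclear/cytoplasmic level was -0.38 over the members and 0.04 over all tested genes. With at least 10 counts in every library these medians were -0.28 and -0.07. The lean was not particular to the members: 22 of 52 further replication and G1/S genes were lower in the nucleus (median -0.45). Of 28 mitosis genes 16 were lower (median -0.58). This comparison sets 3 nuclear libraries against 1 cytoplasmic library, whose own spread is unknown and was taken from the other groups.

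The nucleotide-supply enzymes all passed on the cytoplasmic side. RRM1, the large subunit of ribonucleotide reductase, was at 90.2, 75.3 and 83.5 CPM in the control nuclei and 170.3 in the control cytoplasm, a log2 nuclear/cytoplasmic level of -1.04 ± 0.14 (SE). For RRM2, the small subunit of the same enzyme, this level was -0.61 ± 0.13, and for TYMS, thymidylate synthase, it was -0.82 ± 0.12. The clamp PCNA (-0.84 ± 0.17), the licensing factor CDC6 (-0.80 ± 0.14) and the G1/S cyclin CCNE2 (-1.21 ± 0.26) also lay below 0. The 3 genes on the nuclear side were LIG1, the DNA ligase that seals Okazaki fragments (1.15 ± 0.15), POLE, the catalytic subunit of polymerase epsilon (0.98 ± 0.12), and POLA2, a subunit of polymerase alpha (0.64 ± 0.19). LIG1 stood at 81.0, 80.4 and 77.0 CPM in the control nuclei against 35.8 in the control cytoplasm.

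After RNAi the same comparison, now with 3 nuclear and 2 cytoplasmic libraries, gave 20 members lower in the nucleus (background 24.9%) and 3 higher (background 32.9%), with a median of -0.48 against 0.04 over all tested genes. The 3 on the nuclear side were CLSPN (1.23 ± 0.15), RFC1 (1.21 ± 0.20) and ORC6 (0.67 ± 0.17). CDT1 (-1.49 ± 0.09), GINS1 (-1.32 ± 0.13), the sparsely counted PRIM2 (-1.27 ± 0.52) and POLD2 (-1.24 ± 0.08) lay farthest on the cytoplasmic side of those that passed. This split depended on the scaling: with library size alone 7 members were on the nuclear and 8 on the cytoplasmic side, and on log2(TPM + 1) (TPM, abundances corrected for transcript length) 12 and 4. The members' median was then -0.21 and -0.06, and that of all tested genes 0.30 and 0.32. No background share is given for these counts.

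The study was built to ask which mRNAs shift toward the nucleus when KIAA1429 and WTAP are depleted, that is, whether the nuclear/cytoplasmic ratio differs between RNAi and control. Among the replication genes the ratio rose for 6 (background 10.4%), fell for 9 (background 7.87%) and did not pass the thresholds for 25. The members' median change was -0.20 on the log2 scale, beside -0.05 over all tested genes. The ratio rose for CCNE2, CLSPN, RFC1, POLE2, ORC6 and MCM4, and fell for CDT1, LIG1, POLD2, POLD1, POLE, MCM2, MCM5, E2F1 and MCM7. The direction of the split moved with the scaling: with library size alone the ratio rose for 8 and fell for 2, and in limma on log2(TPM + 1) it rose for 4 and fell for 0 (10 higher and 1 lower at an unadjusted p under 0.05). Under those settings the members' median was 0.09 and 0.17, and that of all tested genes 0.23 and 0.21, so the members' median lay below the common one in each. No background share is given for the counts under those settings, adjusted or unadjusted, so they describe the members only. None of these 15 changes turned its sign in the 8 fits that left out 1 library or in the 11 other alternatives, and CCNE2, CLSPN and RFC1 passed in all of them. The sizes did not all hold: among the 11, the smallest fall was -0.02 for MCM5, -0.08 for POLD1 and -0.20 for MCM7. The 9 falls passed in 4 (MCM7) to 9 (CDT1 and LIG1) of the 11. The counts were not steady either: without RNAi cytoplasm replicate 1 the ratio rose for 3 members, and without RNAi cytoplasm replicate 2 it fell for 5. Every ratio rests on the single control cytoplasm, which no fit could leave out.

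**Figure D2:**
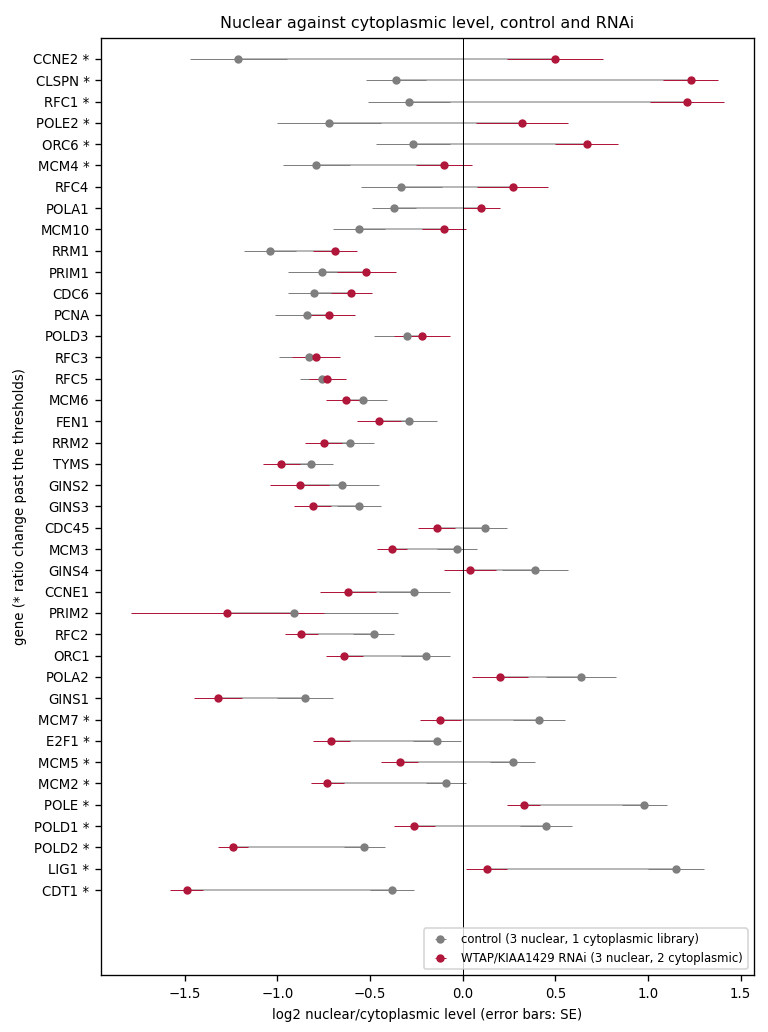
Log2 nuclear/cytoplasmic level of the 40 members (rows, ordered by the change) in control (grey) and WTAP/KIAA1429 RNAi (red), with bars of 1 SE from the fit, and a star at the 15 whose ratio change passed FDR 0.1 and 0.5. CLSPN, RFC1 and ORC6 lie on the nuclear side after RNAi (1.23, 1.21 and 0.67), and CDT1 and POLD2 move farther to the cytoplasmic side.

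More members passed the thresholds in the cytoplasm than in the nucleus. Of the 40 members, 6 rose (background 10.4%) and 11 fell (background 14.2%) in RNAi cytoplasm, whereas in the nucleus 0 rose (background 2.47%) and 2 fell (background 2.42%). In edgeR's quasi-likelihood test the median log2 change in the cytoplasm was -0.07, beside 0.01 over all tested genes, with members spread from -1.68 to 1.22. In the nucleus they ran from -0.64 to 0.42, and at an unadjusted p under 0.05 in the same test 2 were higher and 10 lower there, as were 2 and 9 in DESeq2, whose adjusted test called 0 higher and 1 lower. The share of all tested genes at that unadjusted cut is not given, so these counts cannot be set against a background. Both RNAi cytoplasms lay above the control library for 18 members (background 39.6%) and below it for 18 (background 40.1%). With library size alone 3 members rose and 15 fell in the cytoplasm, and on log2(TPM + 1) 1 rose and 8 fell. The members' median was then -0.33 and -0.25, and that of all tested genes -0.24 and -0.16. These counts, too, stand without a background share.

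**Figure D3:**
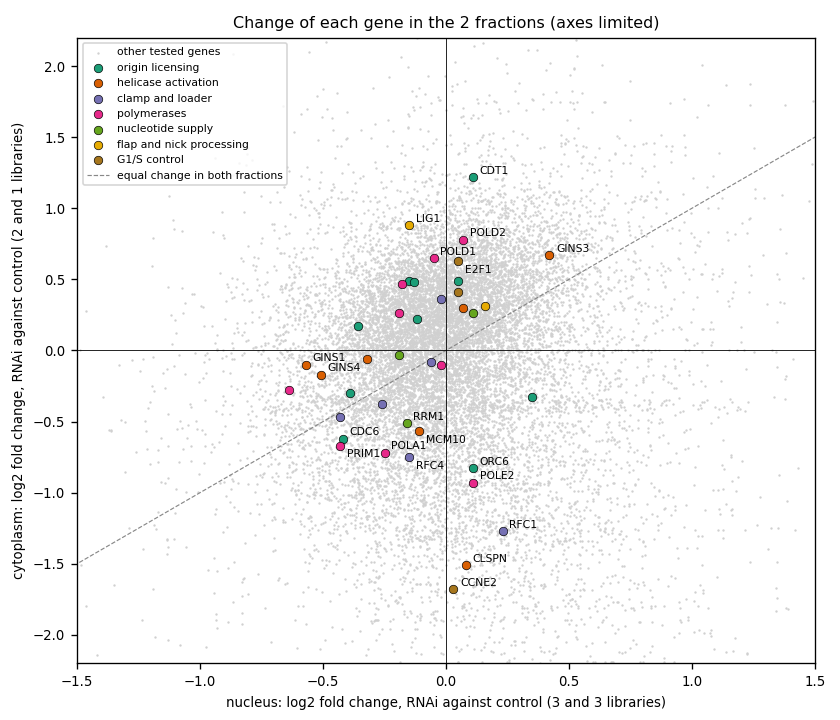
Log2 change after RNAi in the nucleus (horizontal) and in the cytoplasm (vertical) for the 40 members, coloured by role, over all other tested genes (grey); the dashed line marks equal change in both. Members spread from -1.68 to 1.22 vertically and from -0.64 to 0.42 horizontally; those that passed in either fraction are named.

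Nuclear RNA markers differed between the cytoplasmic libraries too. MALAT1, a long non-coding RNA held in the nucleus, was at 13.8 CPM in the control cytoplasm and at 6.47 and 5.47 in the RNAi cytoplasms, beside 88.3 to 199.4 in the control and 157.9 to 163.3 in the RNAi nuclei. Of the 5 such RNAs listed, 4 were tested: MALAT1 and KCNQ1OT1 fell in the cytoplasm (FDR 0.0642 and 0.0559), NEAT1 and TUG1 gave -0.32 and -0.42 without passing, and MEG3 was at or near 0 CPM. Their part in the members' cytoplasmic values was not tested.

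Among the licensing genes CDT1 stood out. CDT1 (chr16:88870197-88875666, plus strand, GRCh37), which brings the MCM helicase to origins and is destroyed once S phase begins, was at 400.5, 347.1 and 379.5 CPM in control nuclei and at 420.2, 402.9 and 393.3 in RNAi nuclei. In the cytoplasm it stood at 489.5 CPM in the control and at 1157 and 1126 after RNAi. The nuclear groups overlapped, and both RNAi cytoplasms were far above every other library. The cytoplasmic log2 change was 1.22 ± 0.13 (FDR 0.000812 in edgeR's quasi-likelihood test) and the ratio changed by -1.11 ± 0.16 (FDR 0.00347). The retained-intron transcript annotated for CDT1 took 3.39 to 7.05% of its counts in nuclei and 4.08 to 5.46% in cytoplasms.

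MCM2, MCM5 and MCM7, helicase subunits, moved the same way in the ratio. MCM2 (chr3:127317253-127341279, plus strand) was at 203.4, 193.2 and 199.9 CPM in control nuclei and 168.2, 180.9 and 189.2 in RNAi nuclei, with 212.0 in the control cytoplasm and 292.2 and 302.8 in the RNAi cytoplasms. RNAi libraries thus lay below controls in the nucleus and above the control in the cytoplasm, without overlap, and the ratio fell by 0.64 ± 0.15 on the log2 scale (FDR 0.0232). MCM5 gave 247.1, 271.1 and 252.5 CPM in control nuclei, 216.2, 250.1 and 238.1 in RNAi nuclei, which overlapped, 213.4 in the control cytoplasm and 290.1 and 303.9 after RNAi, and its ratio fell by 0.61 ± 0.16 (FDR 0.0353). MCM7 was at 345.4, 416.8 and 359.5 CPM in control nuclei against 275.3, 300.7 and 297.6 in RNAi nuclei, with 282.0 in the control and 296.1 and 339.1 in the RNAi cytoplasms. For MCM7 (ratio -0.53 ± 0.18, FDR 0.0838) the nuclear groups did not overlap but its nuclear change of -0.36 ± 0.10 was under the fold threshold. Leaving out RNAi cytoplasm replicate 2 ended the ratio call of MCM5 (-0.53, FDR 0.109), and that of MCM7 was lost without control nucleus replicate 2 or 3, RNAi cytoplasm replicate 2 or any RNAi nucleus (-0.39 to -0.56). MCM7 exons overlap those of AP4M1 on the opposite strand.

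MCM4 and ORC6 moved the other way. MCM4, another subunit of the same helicase, was at 38.3, 34.4 and 41.8 CPM in control nuclei, 55.1, 39.9 and 50.4 in RNAi nuclei, 65.7 in the control cytoplasm and 49.2 and 55.2 after RNAi. Its nuclear groups overlapped and both RNAi cytoplasms lay below the control (ratio 0.68 ± 0.23, FDR 0.0843), and the call was lost without either RNAi cytoplasm (0.60 and 0.81) and without RNAi nucleus replicate 1 or 3 (0.58 and 0.65). ORC6 (chr16:46723555-46732306, plus strand), the smallest subunit of the origin recognition complex, was at 9.41, 11.6 and 8.58 CPM in control nuclei and 11.1, 10.9 and 10.03 in RNAi nuclei, which overlapped. Its cytoplasmic level was 11.9 CPM in the control and 6.465 and 6.997 after RNAi, a log2 change of -0.83 ± 0.22 (FDR 0.0246), and its ratio rose by 0.94 ± 0.26 (FDR 0.0455, and 0.108 without RNAi cytoplasm replicate 1). CDC6, the ATPase that recruits the helicase with CDT1, was at 54.3, 63.2 and 55.5 CPM in control nuclei and 40.7, 45.2 and 43.6 in RNAi nuclei, with 100.6 in the control and 70.6 and 59.9 in the RNAi cytoplasms. CDC6 was lower after RNAi in both fractions without overlap: it fell in the cytoplasm (-0.62 ± 0.15, FDR 0.0165), while the nuclear change of -0.42 ± 0.10 stayed under the fold threshold and the ratio change of 0.20 ± 0.18 did not pass. Across the 10 licensing genes the ratio rose for 2 and fell for 4, and MCM3, MCM6, ORC1 and CDC6 did not pass.

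Of the 7 genes that activate the helicase and stabilise the fork, CLSPN moved most. CLSPN (chr1:36185819-36235579, minus strand) encodes claspin, an adaptor that carries the checkpoint signal at stalled forks. It was at 14.4, 13.0 and 13.7 CPM in control nuclei and 13.6, 16.03 and 13.9 in RNAi nuclei, but at 17.6 in the control cytoplasm against 6.15 and 6.23 after RNAi. The nuclear groups overlapped, and the RNAi cytoplasms were the lowest 2 libraries. Its cytoplasmic log2 change was -1.51 ± 0.18 (FDR 0.00111) and its ratio rose by 1.59 ± 0.22 (FDR 0.00326). MCM10, which helps start unwinding, fell in the cytoplasm, from 71.3 CPM to 50.2 and 46.0 (-0.57 ± 0.15, FDR 0.0283), and GINS3 rose there from 52.0 to 84.7 and 80.7 CPM (0.67 ± 0.13, FDR 0.00805).

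The 2 nuclear changes past both thresholds belonged to this group. GINS1 and GINS4, subunits of the GINS complex, fall outside the rule that chose the other named genes and were named after their values were seen. GINS1 was at 38.4, 44.5 and 40.4 CPM in control nuclei and 26.01, 29.6 and 27.4 in RNAi nuclei, with no overlap (-0.57 ± 0.12, FDR 0.0341). GINS4 was at 42.8, 53.3 and 41.8 CPM in control nuclei and 34.9, 32.6 and 29.1 in RNAi nuclei (-0.51 ± 0.12, FDR 0.0515). GINS3, in contrast, was above control in every RNAi nucleus, 45.5, 47.5 and 48.4 against 37.3, 33.0 and 35.4 CPM, with a log2 change of 0.42 ± 0.09 that was under the fold threshold (FDR 0.0397). Both nuclear calls were lost without control nucleus replicate 3 or any one RNAi nucleus (GINS1 -0.53 to -0.62, GINS4 -0.44 to -0.59), and that of GINS4 also without control nucleus replicate 2 (-0.39). Exons of both genes overlap an opposite-strand gene, NINL for GINS1 and non-coding RNAs for GINS4.

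Beyond these calls, all RNAi nuclei lay below all control nuclei for 13 of the 40 members (32.5%, background 13.8%) and above them for 2 (5.0%, background 14.3%). The 13 were MCM2, MCM3, MCM6, MCM7, CDC6, CDC45, GINS1, GINS4, RFC3, POLA1, PRIM1, POLE and TYMS, and the 2 were GINS3 and POLD2. The count below was smaller when libraries were scaled otherwise: 8 members (20.0%, all genes 10.5%) with library size alone and 4 (all genes 7.3%) on TPM. The median nuclear change was -0.12 on the log2 scale, beside -0.00 over all tested genes, and 25 of 40 values were below 0. All RNAi nuclei also lay below all control nuclei for 17 of 52 further replication and G1/S genes (32.7%). The same held for 11 of 28 mitosis genes (39.3%), both on TMM scaling.

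In the clamp and its loader RFC1 was the outlying subunit. RFC1 (chr4:39289076-39367995, minus strand), the large subunit of the loader, was at 20.8, 14.5 and 16.6 CPM in control nuclei and 23.8, 19.2 and 17.7 in RNAi nuclei, which overlapped. In the cytoplasm it was at 21.2 CPM in the control and 8.65 and 8.86 after RNAi, a log2 change of -1.27 ± 0.24 (FDR 0.00594), and its ratio rose by 1.5 ± 0.29 (FDR 0.0115). RFC4, a small subunit, also fell in the cytoplasm, from 15.1 CPM to 8.65 and 9.29 (-0.75 ± 0.24, FDR 0.0489, and 0.137 without RNAi cytoplasm replicate 1), and its exons overlap those of EIF4A2 on the other strand. RFC2, RFC3 and RFC5, which share the ring with them, gave cytoplasmic changes of 0.36, -0.47 and -0.08 that did not pass both thresholds. PCNA, the sliding clamp, was at 102.8, 127.0 and 102.2 CPM in control nuclei, 104.7, 81.7 and 90.0 in RNAi nuclei, 198.2 in the control cytoplasm and 162.3 and 141.1 after RNAi. The PCNA nuclei overlapped, and neither its cytoplasmic change (-0.38 ± 0.18, FDR 0.162) nor its ratio change (0.12 ± 0.22, FDR 0.769) passed.

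POLD1 and POLD2, the catalytic and second subunits of polymerase delta, rose in the cytoplasm. POLD2 (chr7:44154230-44163957, minus strand) was at 192.2, 209.2 and 206.5 CPM in control nuclei and 217.0, 210.6 and 209.8 in RNAi nuclei, with 293.0 in the control cytoplasm and 503.9 and 500.6 after RNAi. The RNAi nuclei lay just above the controls, the RNAi cytoplasms far above (0.78 ± 0.12, FDR 0.00274), and the ratio fell by 0.71 ± 0.14 (FDR 0.0127). POLD1 (chr19:50887461-50921275, plus strand) was at 143.3, 174.5 and 144.3 CPM in control nuclei, 143.2, 156.4 and 146.1 in RNAi nuclei, 113.0 in the control cytoplasm and 169.6 and 185.2 after RNAi (cytoplasm 0.65 ± 0.15, FDR 0.0156; ratio -0.70 ± 0.18, FDR 0.0347, and -0.60 with FDR 0.110 without RNAi cytoplasm replicate 2). POLD3, an accessory subunit, gave a cytoplasmic change of -0.10 ± 0.19.

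In polymerase epsilon the ratio of the catalytic subunit fell and that of the second subunit rose. POLE (chr12:133200339-133263962, minus strand) was at 273.5, 268.2 and 261.3 CPM in control nuclei, 226.9, 250.5 and 231.4 in RNAi nuclei, 135.3 in the control cytoplasm and 189.7 and 186.3 after RNAi. RNAi libraries were below controls in the nucleus and above in the cytoplasm, and the ratio fell by 0.65 ± 0.14 (FDR 0.0192). POLE2, which rested on 49 to 175 counts, was at 5.22, 7.16 and 6.99 CPM in control nuclei, 8.35, 7.60 and 5.01 in RNAi nuclei, 10.7 in the control cytoplasm and 5.76 and 5.36 after RNAi. The nuclear POLE2 values overlapped, it fell in the cytoplasm (-0.93 ± 0.30, FDR 0.0550) and its ratio rose by 1.05 ± 0.37 (FDR 0.0961). The ratio call of POLE2 was lost without control nucleus replicate 1 or 3, either RNAi cytoplasm, or RNAi nucleus replicate 1 or 2 (0.89 to 1.15), and its cytoplasmic call without either RNAi cytoplasm (-0.99 and -0.93). POLA1, the catalytic subunit of polymerase alpha, fell in the cytoplasm from 72.5 CPM to 42.6 and 45.4 (-0.72 ± 0.13, FDR 0.00530). PRIM1, the catalytic primase subunit, fell from 21.96 to 13.9 and 13.6 CPM (-0.67 ± 0.20, FDR 0.0364). PRIM1 shares exons with NACA on the same strand, and on its transcripts annotated as protein-coding alone the value was 0.84 ± 1.42 (FDR 0.723).

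LIG1 and FEN1 finish Okazaki fragments. LIG1 (chr19:48618702-48673860, minus strand) was at 81.0, 80.4 and 77.0 CPM in control nuclei and 77.5, 70.1 and 67.7 in RNAi nuclei, and it was at 35.8 in the control cytoplasm against 71.0 and 60.4 after RNAi. The nuclear groups overlapped and the control cytoplasm was the lowest library, so that the cytoplasmic change was 0.88 ± 0.15 (FDR 0.00430) and the ratio fell by 1.02 ± 0.18 (FDR 0.00828). FEN1, the flap endonuclease, gave a cytoplasmic change of 0.31 ± 0.17 that did not pass, and it shares exons with FADS2 on the same strand.

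The nucleotide-supply enzymes gave no ratio call. RRM2 was at 215.9, 181.4 and 204.7 CPM in control nuclei, 204.4, 224.4 and 222.5 in RNAi nuclei, 305.6 in the control cytoplasm and 383.8 and 347.1 after RNAi (ratio -0.15 ± 0.17, FDR 0.619). TYMS was at 63.3, 60.9 and 65.8 CPM in control nuclei, 51.7, 56.5 and 58.5 in RNAi nuclei, 111.9 in the control cytoplasm and 106.0 and 113.8 after RNAi (ratio -0.16 ± 0.16, FDR 0.542). The RRM2 nuclei overlapped and the TYMS nuclei did not, with RNAi below. RRM1 fell in the cytoplasm, from 170.3 CPM to 131.1 and 107.5 (-0.51 ± 0.16, FDR 0.0427), and lost that call without RNAi cytoplasm replicate 2 (-0.43, FDR 0.136).

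CCNE1 and CCNE2 are the E-type cyclins, which drive CDK2 at the G1/S boundary. CCNE2 was at 2.82, 2.93 and 3.19 CPM in control nuclei and 3.76, 2.41 and 2.83 in RNAi nuclei, and at 6.88 in the control cytoplasm against 2.10 and 2.19 after RNAi. Its nuclear groups overlapped, and the control cytoplasm stood above all other libraries. CCNE2 exons overlap those of INTS8 on the opposite strand, which had 438.4 estimated counts in the control cytoplasm and 130.0 and 112.0 in the RNAi cytoplasms, and its part in the CCNE2 values was not tested. The cytoplasmic change was -1.68 ± 0.30 (FDR 0.00475), and the ratio change of 1.70 ± 0.37 (FDR 0.0179) was the highest among the members. CCNE1 was at 22.7, 25.2 and 23.5 CPM in control nuclei, 20.2, 27.1 and 26.5 in RNAi nuclei, 28.5 in the control cytoplasm and 34.0 and 41.9 after RNAi, and neither its cytoplasmic change (0.41 ± 0.20, FDR 0.187) nor its ratio change (-0.36 ± 0.25, FDR 0.368) passed. E2F1 (chr20:32263283-32274191, minus strand), the transcription factor upstream of much of this set, was at 91.7, 96.7 and 91.5 CPM in control nuclei, 91.0, 101.3 and 97.6 in RNAi nuclei, 102.5 in the control cytoplasm and 145.8 and 171.2 after RNAi. The nuclear E2F1 values overlapped, while it rose in the cytoplasm (0.63 ± 0.14, FDR 0.0126) and its ratio fell by 0.58 ± 0.17 (FDR 0.0493). The ratio call of E2F1 was lost without control nucleus replicate 3 (-0.54), RNAi cytoplasm replicate 2 (-0.41) or RNAi nucleus replicate 3 (-0.59), and its cytoplasmic value was 0.46 without RNAi cytoplasm replicate 2.

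**Figure D4:**
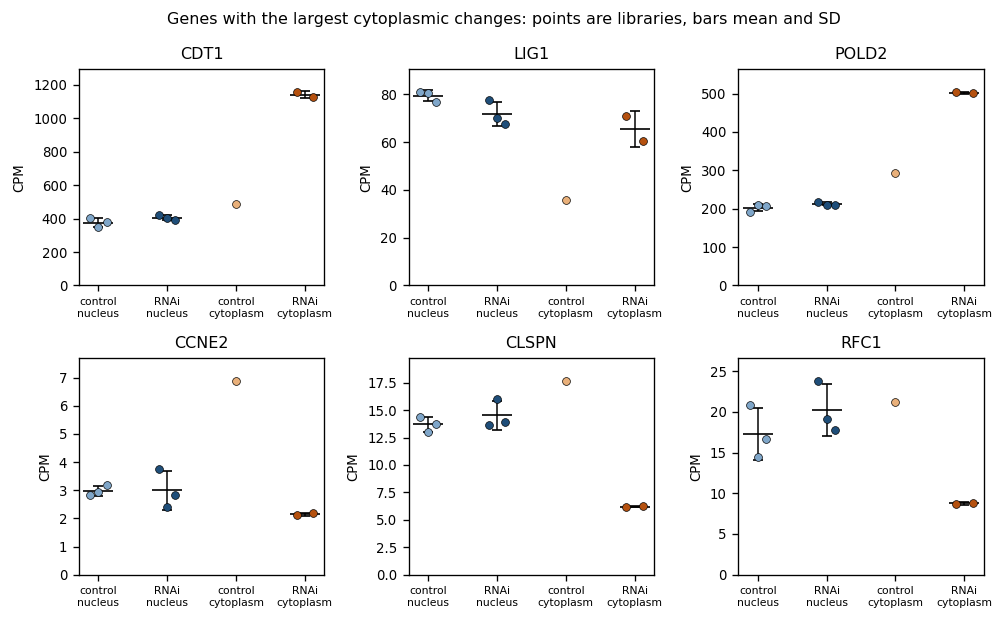
CPM of 6 members in each library (points), with mean and SD for groups of more than 1 library, on linear axes that start at 0. CDT1, LIG1 and POLD2 (top) are higher and CCNE2, CLSPN and RFC1 (bottom) lower in both RNAi cytoplasms than in the single control cytoplasm.

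The promoter letters shown at the start were found on both sides of the split. They were present in 4 of 6 members that rose in the cytoplasm, in 4 of the 10 with a window that fell, and in 11 of the 19 with a window that did neither. CDT1, LIG1, GINS3 and E2F1 rose while CLSPN, POLE2, POLA1 and CDC6 fell, and each of these 8 held a stretch.

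Some transcripts of these genes are annotated as retaining an intron, and they marked the nucleus for part of the set. Of the 32 members with such transcripts, 18 carried a larger share of their counts on them in every nuclear than in every cytoplasmic library (background 42.2% of 7471 protein-coding genes with such transcripts) and 0 the reverse (background 1.08%). For MCM4 the share was 27.7 to 42.7% in nuclei and 0.37 to 4.70% in cytoplasms. ORC6 gave 34.9 to 61.9% and 2.16 to 11.95%, and LIG1 gave 8.86 to 16.4% and 0.05 to 2.01%. RRM2 was different, at 54.4 to 67.2% in nuclei and 58.6 to 62.1% in cytoplasms, as was TYMS, at 18.02 to 32.7% and 31.4 to 37.3%. MCM7 carried 50.8 to 58.8% in nuclei and still 37.9 to 43.0% in cytoplasms. Salmon divides reads among overlapping transcripts by a model, so these shares are estimates.

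Summed over the members, these shares were 13.68% ± 0.45 (SD, n = 3) in control nuclei and 13.78% ± 0.34 (SD, n = 3) in RNAi nuclei, with a 2-sided exact permutation p of 0.9, where 3 against 3 libraries can give no less than 0.1. As shares of TPM they were 28.06% ± 0.91 and 29.45% ± 0.67 (SD, n = 3 each, exact permutation p of 0.2), and over all protein-coding genes the shares of counts were 5.31% ± 0.78 and 5.79% ± 0.21 (SD, n = 3 each, exact permutation p of 0.4). In cytoplasms the members' shares of counts were 10.3% in the control and 9.42 and 9.48% after RNAi. RNAi nuclei lay above control nuclei without overlap for 3 of the 32 genes, GINS4, POLA1 and RRM2 (background 11.8%), and below for 0 (background 3.37%). On shares of TPM the same tally was 2 above, POLA1 and RRM2, and 2 below, GINS1 and CCNE1.

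**Figure D5:**
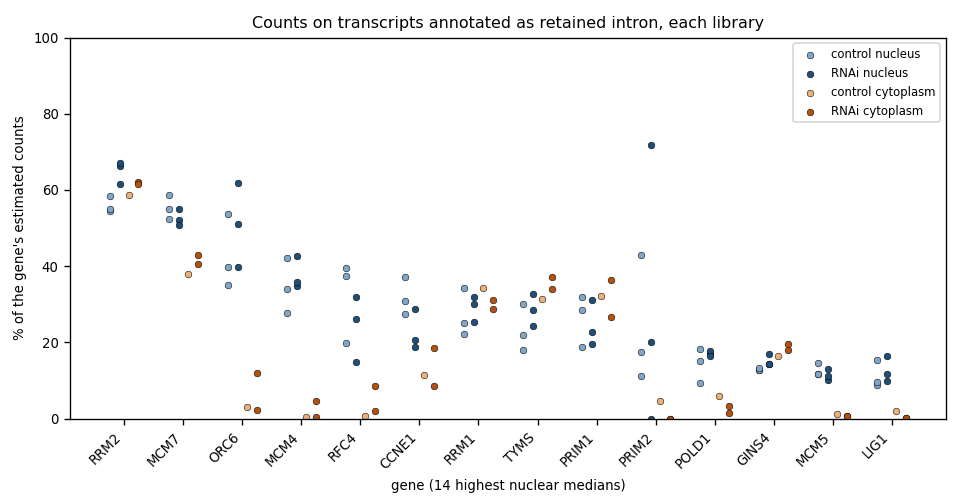
Percent of the estimated counts of a gene that lie on transcripts annotated as retained intron, in each library, for the 14 members with the highest nuclear medians. Points for MCM4, ORC6, RFC4, LIG1 and MCM5 are high in nuclei (blue) and at most 11.95% in cytoplasms (orange), while RRM2, RRM1, TYMS and PRIM1 overlap between fractions.

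Because N6-methyladenosine is known to be dense in long last exons, the length of the longest annotated final exon was set beside the changes. The median was 1254 nucleotides over the 40 members and 1756 over all tested genes. Members whose ratio rose had a median of 1451 and those whose ratio fell 1058. Across the 40 members Spearman's rho between this length and the ratio change was 0.17, and across all tested genes 0.19. Genes share libraries and annotation and are not independent, and both are given as a description only.

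Other genes of the pathway were read from a list of 52 further replication and G1/S genes. Their ratio rose for 13 and fell for 3, with 4 rising and 16 falling in the cytoplasm and 0 rising and 3 falling in the nucleus. Those with the largest ratio changes included ATAD5, which unloads PCNA (3.62 ± 0.72), DBF4, the activator of the CDC7 kinase (2.38 ± 0.35), RB1, the retinoblastoma protein (1.78 ± 0.37), and TOPBP1, a scaffold of origin firing (1.58 ± 0.23). ORC3 (1.53 ± 0.23) and ORC4 (1.5 ± 0.29), further subunits of the origin recognition complex, rose as ORC6 did, while ORC2 (0.42 ± 0.24), ORC5 (-0.10 ± 0.31) and ORC1 (-0.43 ± 0.16) did not pass. A list of 28 mitosis genes gave 11 with a higher and 1 with a lower ratio, and 1 rising and 15 falling in the cytoplasm. The median ratio change was 0.07 for the 52 genes, 0.28 for the mitosis genes and -0.20 for the members, and the difference between the lists was not tested.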

How the data were processed

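Nuclear and cytoplasmic mRNA of HEK293 cells was sequenced from Lexogen SENSE libraries. Per the labels and methods the authors trimmed reads with cutadapt, merged lanes and quantified Ensembl transcripts of hg19 with salmon (versions not given in the sources used here). For each library they deposited estimated counts (not normalized), TPM, and transcript and effective lengths. Groups came from the condition, fraction and replicate in the labels.

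Estimated counts were summed per gene over 183122 of 215170 transcripts (85.1%) matched to GENCODE on GRCh37 (83.07 to 88.31% of counts), rounded, kept at 10 or more counts in 3 or more libraries and tested with edgeR 4.0.16 (TMM, quasi-likelihood F test, 4 groups, 5 residual degrees of freedom, Benjamini-Hochberg adjustment over 16181 genes). Thresholds were the study's, FDR below 0.1 and log2 change over 0.5. Values after ± are SE from the fit. Contrasts with the control cytoplasm take its spread from the other groups, and comparisons share libraries. On simulated counts the scripts were tested for the ratio and nuclear contrasts. The deposited TPM entered limma 3.58.1 fits and DESeq2 1.42.0 was an alternative. Counting error alone is covered by the floor of 3 counts.

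Members and lists were chosen with earlier results of these data known. Named were members past both thresholds for the ratio or the nucleus (up to 15, by size of the ratio change) and MCM2, MCM5, CDC6, CDT1, PCNA, RRM2, TYMS, CCNE1, CCNE2, E2F1 and UHRF1, with others that passed in the cytoplasm given briefly. Exons of 15 members overlap another gene (4 on the same strand: PRIM1, POLD1, POLD3 and FEN1; LIG1, CLSPN, RRM1 and TYMS among those on the opposite strand), so their counts are less certain. Replicates of a group differed beyond sampling noise (chi-square per degree of freedom 5.1 to 57.9). Promoters were taken from RefSeq. No authors' comparison column was present or used.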

Additional observations from a re-analysis of the deposited data

Results flagged for a closer look

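For 16 members the change in nucleus against cytoplasm differed between RNAi and control by the interaction term of edgeR's quasi-likelihood fit (FDR below 0.1 over all 16181 genes). On the log2 scale the difference was 1.70 for CCNE2, 1.59 for CLSPN, 1.5 for RFC1, 1.05 for POLE2, 0.94 for ORC6, 0.68 for MCM4 and 0.47 for POLA1. It was -1.11 for CDT1, -1.02 for LIG1, -0.71 for POLD2, -0.70 for POLD1, -0.65 for POLE, -0.64 for MCM2, -0.61 for MCM5, -0.58 for E2F1 and -0.53 for MCM7. The value of POLA1 (FDR 0.0887) was under the fold threshold. With that threshold added, 10.4% of all tested genes were higher and 7.87% lower. The share of all tested genes at this FDR alone is not given. The ratio calls of CDT1, LIG1, RFC1, CLSPN, CCNE2, MCM2, POLD2 and POLE passed in each of the 8 fits that left out 1 library, none of which could leave out the single control cytoplasm. In the 11 other alternatives CCNE2, CLSPN and RFC1 passed in all, CDT1 and LIG1 in 9, MCM2 and POLD2 in 8 and POLE in 7. The smallest falls there were -0.27 for MCM2, -0.34 for POLD2 and -0.23 for POLE.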

How the results depend on the processing

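Counts of called members in this section have no background share beside them and describe the members only. With library size alone, the members gave 2 lower ratios, 0 lower in the nucleus, 3 higher in the cytoplasm and, for nucleus against cytoplasm after RNAi, 7 higher and 8 lower. The length offset gave 5 lower ratios, 1 higher in the nucleus, 7 lower in the cytoplasm and 7 higher for nucleus against cytoplasm after RNAi. In limma, log2(TPM + 1) and log2(TPM + 0.1) each gave 0 lower ratios, 0 lower in the nucleus, 1 higher in the cytoplasm and, after RNAi, 12 higher and 4 lower in nucleus against cytoplasm. The nuclear count of 2 lower genes was 1 with DESeq2 size factors, with the DESeq2 Wald test, at FDR 0.05 and with 10 or more counts in every library. That last filter also gave 6 higher and 13 lower for nucleus against cytoplasm after RNAi. On transcripts annotated as protein-coding, an alternative chosen after seeing the data, nucleus against cytoplasm gave 11 lower members in control and 11 lower after RNAi, and the cytoplasmic PRIM1 value turned to 0.84. With the replicate block, 10 members were higher in the cytoplasm and 5 higher in control nucleus against cytoplasm. Same-numbered libraries correlated by 0.037 to 0.197, and differently numbered libraries by -0.197 to 0.063. Because not all same-numbered values were above 0.1, the main fit took no pairs. Whether same-numbered libraries share a culture was not tested. Leaving out 1 library gave 3 to 8 higher and 5 to 10 lower ratios, and 0 to 2 lower in the nucleus. The lowest ratio counts came without RNAi cytoplasm replicate 1 (3 higher) and replicate 2 (5 lower). The nuclear count was 0 without control nucleus replicate 3 or any 1 RNAi nucleus. The causes were not tested. Of 640 values of single genes under alternatives other than a library left out, 546 kept their call or stayed without one. So did 414 of 452 with 1 library left out. Values that stayed without a call were counted whatever their sign, and medians and counts of members were not included. Depth limits PRIM2 and CCNE2 most.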
